A study of Mus musculus with 16 samples.

Results

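Aplp1, Kirrel2 and Hpn lie close together on mouse chromosome 7 and were followed here in whole colon of wild type (WT) mice and of mice whose intestinal epithelium lacks the chromatin remodeller Smarcad1 (KO). The 3 genes were chosen by name, with their differences between the genotypes already known, from the 5171 distinct genes that have a row in at least 1 of 4 deposited tables. The differences between KO and WT are therefore a description and carry no test. Each table is limited to genes under an adjusted p-value of 0.05 in the authors' DESeq2 test of 1 comparison, and a gene is called listed below when it has a row in that table.

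All mice were male C57BL/6 and received an enriched microbiota from another facility, by bedding transfer and shared ventilation, starting 2 weeks before colitis was induced. Smarcad1 was deleted by Cre recombinase under the villin promoter, which is active in intestinal epithelium, so that muscle, nerve, vessel and immune cells of the KO colon keep an intact gene. There were 3 WT control and 3 KO control libraries from untreated mice. Another 5 WT and 5 KO libraries came from mice given dextran sodium sulphate, which erodes the colonic lining, at 1% in their drinking water over 15 days (colitis). The paper reports that KO mice did not show the soft stool and weight loss of WT mice. Colitis therefore names the treatment here, not an equal disease in both genotypes. The deletion takes out a group of exons flanked by loxP sites, so RNA of the other exons can remain. The age of the mice is not given in the sources used here, the conditional allele comes from 1 mouse line (CE6), and the series' design text names small intestine where the sample labels name colon.

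Aplp1 encodes amyloid precursor-like protein 1, a membrane protein of the amyloid precursor protein (APP) family that is best known from neurons, where family members act in cell adhesion and are cut by secretases. Kirrel2, also called Neph3, encodes an immunoglobulin-type adhesion protein related to nephrin of the kidney filter and is known from pancreatic beta cells. Hpn encodes hepsin, a serine protease anchored in the cell membrane, which is abundant in liver and can activate the precursor of hepatocyte growth factor (HGF).

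All 3 genes are protein coding, are read from the minus strand, and have the same GRCm38 coordinates in the deposited tables and in GENCODE. Aplp1 (ENSMUSG00000006651) extends from 30434982 to 30445535 on chromosome 7, and Kirrel2 (ENSMUSG00000036915) from 30447534 to 30457690. The end of Kirrel2 is thus upstream of the start of Aplp1, with 1998 bp between them and 0 annotated genes in the gap. Hpn (ENSMUSG00000001249) extends from 31098725 to 31115290, and 641 kb with 40 protein coding genes separate it from Kirrel2. No annotated gene overlaps any of the 3, on either strand.

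The sequence just before each annotated start is shown so that the bases upstream of these neighbouring genes can be compared. The sequences are from RefSeq (GRCm38.p6) and are written 5′ to 3′ on the minus strand, and capitals mark GGGCGG, the core of a GC box, or its reverse complement CCGCCC. For Kirrel2 only the bases outside the gene as the tables give it are shown, and its own match lies inside the gene.
Aplp1, chr7:30445583-30445832: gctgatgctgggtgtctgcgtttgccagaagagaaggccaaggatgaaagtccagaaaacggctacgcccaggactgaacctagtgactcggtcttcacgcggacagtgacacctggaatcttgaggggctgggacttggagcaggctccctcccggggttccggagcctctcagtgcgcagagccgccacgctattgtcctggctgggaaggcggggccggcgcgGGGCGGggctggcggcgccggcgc
Kirrel2, chr7:30457691-30457765: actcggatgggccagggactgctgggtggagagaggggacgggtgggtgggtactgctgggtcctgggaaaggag
Hpn, chr7:31115327-31115576: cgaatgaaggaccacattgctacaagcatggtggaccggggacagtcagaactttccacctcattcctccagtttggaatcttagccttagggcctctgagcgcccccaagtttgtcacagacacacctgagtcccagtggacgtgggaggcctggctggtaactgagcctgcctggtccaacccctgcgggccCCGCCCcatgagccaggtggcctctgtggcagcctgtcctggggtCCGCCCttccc
The stretches differ in base composition. In the 250 bases before the RefSeq start, Aplp1 had 20 CG pairs and 66% G or C, Kirrel2 had 4 CG pairs and 56.4%, and Hpn had 7 CG pairs and 61.6%, against a median of 6 CG pairs and 52.4% over 32841 such windows of the mouse genome. GGGCGG was searched on both strands and was found in each of the 3 windows, from 24 to 19 bases before the start of Aplp1, from 157 to 152 bases before that of Kirrel2, and at both 56 to 51 and 11 to 6 bases before that of Hpn. It occurs in 32.7% of all windows. Further motifs, also searched on both strands, were in none of the 3. These were TATAAA, held by 12.4% of all windows, CCAAT, held by 33.9%, and CACGTG, held by 6.02%. A further RefSeq start of Hpn, at position 31110997, had 1 CG pair in its window and none of these motifs.

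The deposited tables hold 1 mean per group and no value of a single library, so no spread between mice is given. The paper's supplement is described as holding normalised counts by sample for genes expressed in colon, and these were not used here. Each value is the authors' average, over the libraries of a group, of log2 RPM (reads scaled to the library total), not corrected for gene length. Low means fall on steps made by whole reads, from which libraries held a geometric mean of 8.005 M (WT colitis), 9.77 M (KO control), 9.87 M (KO colitis) and 10.1 M reads (WT control), if the lowest mean of a group stands for 0 reads in all its libraries. A level of 3 reads per library, taken as the floor, is then between −1.75 and −1.42 log2 RPM, depending on the group. Smarcad1 itself had control means of 5.77 (WT) and 4.59 log2 RPM (KO) and colitis means of 5.68 and 4.55, and was listed as lower in KO in both conditions. Of 16 colon epithelium markers, 5 had a row, Car1, Car4, Aqp8, Slc26a3 and Guca2a, with control means from 10.72 to 11.74 log2 RPM. Of 10 small intestine markers, 2 had a row, Fabp2 at 9.17 log2 RPM in WT control and the ileal gene Fabp6 at 1.22.

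Aplp1 was the most abundant of the 3 genes, also per length, and differed between the genotypes with and without colitis. In log2 RPM its mean was 6.28 in WT control, 8.07 in KO control, 6.46 in WT colitis and 7.95 in KO colitis. Both KO means were thus above both WT means, whatever the treatment. These means correspond to 788, 2621, 705 and 2438 reads in a library of geometric mean size. On the log2 scale KO exceeded WT by 1.78 in control and by 1.49 in colitis, which is 3.44-fold and 2.81-fold, and Aplp1 was listed as higher in KO in both conditions. In bulk tissue, more RNA per cell and more cells of an expressing type cannot be told apart.

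**Figure D1:**
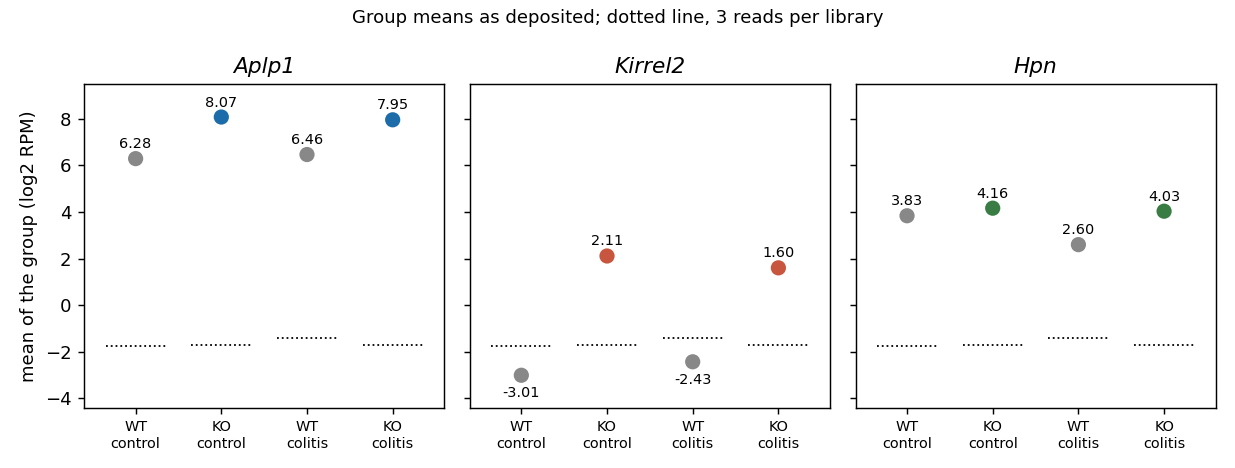
Authors' group means of Aplp1, Kirrel2 and Hpn in log2 RPM, with 1 point per group (3 libraries in each control group, 5 in each colitis group) and no error bars, because no library values were used. Dotted lines mark 3 reads per library, and both WT means of Kirrel2 lie under them, while Hpn is lowest in WT colitis at 2.60.

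Kirrel2 was close to undetected in WT colon and clearly counted in KO colon. Its means in log2 RPM were −3.01 in WT control, 2.11 in KO control, −2.43 in WT colitis and 1.60 in KO colitis. Both WT means lie under 3 reads per library, and the KO means correspond to 42.1 and 29.9 reads. As with Aplp1, both KO means stood above both WT means, but at a far lower level. Kirrel2 was listed as higher in KO in both conditions.

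The WT means of Kirrel2 are so low that the reads behind them can be worked out. In WT control the mean fits 1 set of whole reads, with 1, 1 and 2 reads in the 3 libraries, in an unknown order, or 4 reads in all (exact 95% Poisson interval 1.09 to 10.2). In WT colitis 4 sets fit the mean, with 7 or 11 reads in all 5 libraries together and with 0 reads in 2 or 3 of them. Each set holds libraries with and without reads, and 2 of the sets place 9 or 10 reads in a single library. Which set is the true one cannot be told from a mean. Kirrel2 RNA was thus seen in WT tissue, at the limit of what these depths detect.

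The ratio of KO to WT depends on those few WT reads. From the means as given it was 34.6 in control (95% interval 13.5 to 127, for counting error in the WT reads only) and 16.3 in colitis (7.92 to 40.6, over all 4 sets). With the WT mean raised to 3 reads per library, the ratio was 14.5 in control and 8.09 in colitis, a log2 difference of 3.86 and 3.02. Intervals of this kind do not include the variation between mice.

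Hpn behaved otherwise, as its genotypes lay apart mainly in colitis. Means in log2 RPM were 3.83 in WT control, 4.16 in KO control, 2.60 in WT colitis and 4.03 in KO colitis, or 144, 174, 48.4 and 161 reads in a library of geometric mean size. WT colitis was the single low group, and the other 3 means lay within 0.32 of each other on the log2 scale. In colitis KO exceeded WT by 1.43 (2.70-fold) and Hpn was listed as higher in KO, whereas the difference of 0.32 in control (1.25-fold) was not listed.

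Read against the 5171 genes with a row, such genotype differences were uncommon. All genes means these 5171 here and below. Each of them was listed for at least 1 comparison, so shares of listed genes are larger than among all genes measured. In the means as given, a log2 difference of at least 1 in favour of KO was found for 1.08% of these genes in control. Aplp1 and Kirrel2 passed it there. In colitis the share was 1.49%, and all 3 genes passed. Nothing is read from these shares, since the 3 genes were chosen from this contrast. When all 5171 genes are ordered by KO minus WT of the means as given, Kirrel2 took place 2 in control and 2 in colitis, Aplp1 places 12 and 33, and Hpn places 388 and 35. The places of Kirrel2 rest on WT means under 3 reads. Raised to 3 reads, its colitis difference of 3.02 lies below those of AC151971.2 (4.25) and Bglap3 (3.81). Genes listed as higher in KO made up 0.522% in control and 0.696% in colitis, and Aplp1 and Kirrel2 were 2 of the 10 genes listed as higher in both. The median difference over all genes was 0.0046 in control and −0.014 in colitis.

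**Figure D2:**
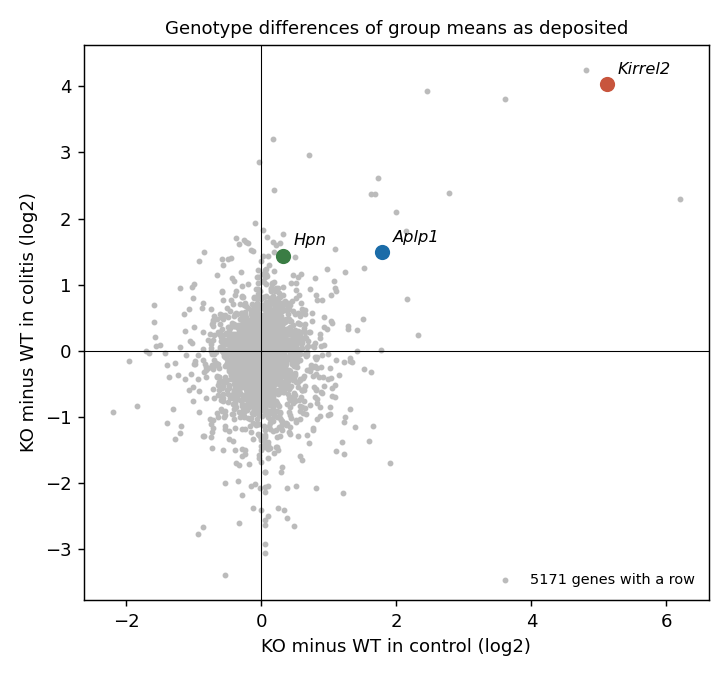
KO minus WT in control (x axis, log2) against KO minus WT in colitis (y axis, log2) from the group means as deposited, 1 point for each of 5171 genes. Kirrel2 lies at 5.11 and 4.03, Aplp1 at 1.78 and 1.49, and Hpn, at 0.32 and 1.43, is apart from zero mainly on the colitis axis.

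Per length of gene the order of the 3 was the same in every group. Divided by merged exon length (3017 bases for Aplp1, 3939 for Kirrel2 and 4101 for Hpn), the level in WT control was 25.8 RPM per kb for Aplp1, 3.48 for Hpn and 0.0316 for Kirrel2. In KO control the levels per length were 88.9, 4.36 and 1.095 in the same order. Hpn thus stood well above Kirrel2 even where Kirrel2 was highest. In colitis the levels were 29.2, 1.47 and 0.0472 RPM per kb in WT and 81.9, 3.98 and 0.770 in KO. Whether neighbouring levels in this order differ beyond the spread between mice was not tested, because only means were used.

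The response to colitis was examined next, within each genotype. In WT, Hpn fell by 1.24 on the log2 scale (2.36-fold lower in colitis) and was listed, and in KO its colitis minus control difference was −0.13 and was not listed. A difference of −1 or lower in WT was common, at 13.0% of all genes, and 26.4% of all genes were listed as lower there. The change of Hpn in KO minus that in WT was 1.11 on the log2 scale, place 85 from the highest among 5171 genes. This interaction was not tested, and the listing in WT alone does not show that the genotypes differ in their response.

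Aplp1 and Kirrel2 were listed in neither colitis comparison. Of all genes, 36.6% were listed as higher and 26.4% as lower in WT, and 44.8% as higher and 33.6% as lower in KO. Only 90 of the 5171 genes were listed for KO against WT, so most have a row through a colitis comparison. Aplp1 and Kirrel2 have theirs through the genotype comparisons alone, so nothing is read from their absence beside these shares. Colitis minus control for Aplp1 was 0.18 in WT and −0.12 in KO, beside a median over all genes of 0.13 and 0.19. For Kirrel2 it was −0.51 in KO, from 42.1 to 29.9 reads per library, and in WT both means lie under 3 reads, so no change can be read there. Whether the genotype difference of either gene changes with colitis was not tested.

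The genes around the 3 were then examined. Within 1 Mb of any of them the annotation has 164 other genes, 86 of them protein coding, and 19 of the 164 had a row in a table. None of the 19 was listed for KO against WT in either condition, and 0 of 19 reached a log2 difference of 1 in either direction. Over all 5171 genes, 0.890% were listed for KO against WT in control and 1.08% in colitis, and 1.82% and 4.39% reached that difference, so counts of 0 of 19 are near these shares and do not set the neighbours apart from other genes. KO minus WT ranged from −0.28 to 0.27 in control, with a median of 0.07, and from −0.33 to 0.74 in colitis, with a median of 0.07. Genes without a row passed no comparison, and their values were not analysed here. Between Kirrel2 and Hpn 10 genes had a row.

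**Figure D3:**
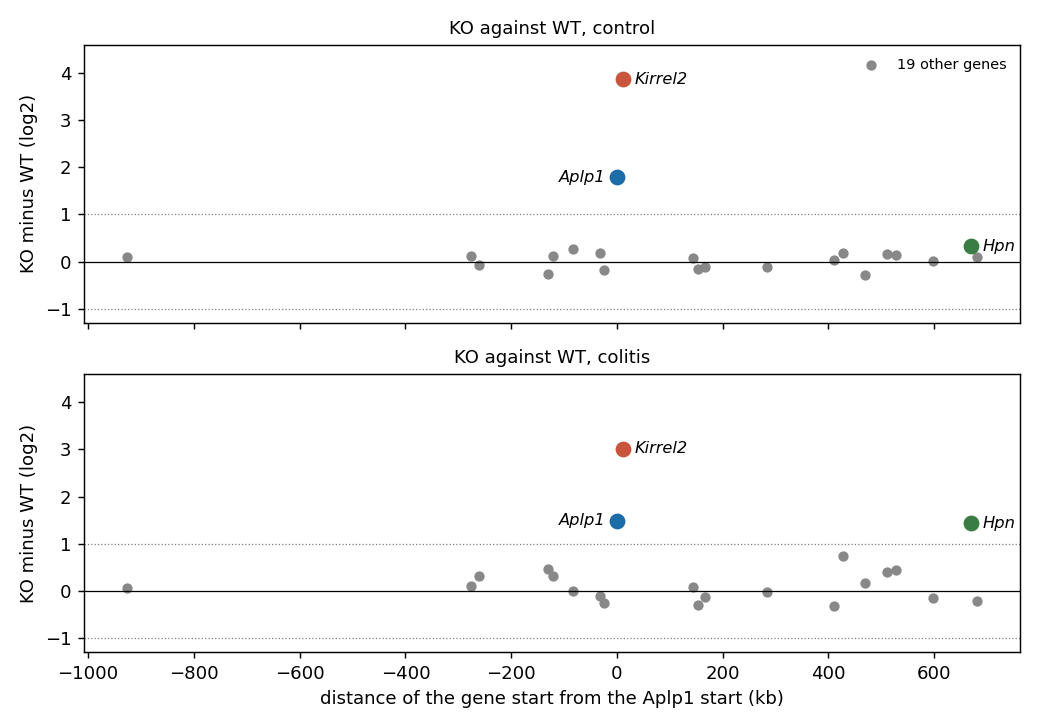
KO minus WT (log2) against the distance of each gene's start from the start of Aplp1 (kb), for the 3 genes and the 19 other genes with a row within 1 Mb, in control (top) and colitis (bottom), with means raised to 3 reads. The 19 others lie between −0.28 and 0.27 in control and between −0.33 and 0.74 in colitis, inside the dotted lines at 1 and −1.

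The measured genes nearest to Aplp1 and Kirrel2 had small differences between the genotypes. Nfkbid, a nuclear inhibitor of kappa B protein, ends 6.24 kb from Aplp1 and had KO minus WT of −0.18 in control and −0.26 in colitis. Tyrobp, which encodes the DAP12 adaptor of myeloid cells, had 0.18 and −0.10, and with colitis it rose by 1.96 (WT) and by 1.67 (KO). Lrfn3, which encodes a synaptic adhesion protein, had 0.27 and −0.01. On the other side of Kirrel2, 111 kb away, Kmt2b, a histone H3 lysine 4 methyltransferase, had 0.07 and 0.09. Zbtb32 had −0.16 and −0.30, and Upk1a −0.12 and −0.12.

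The surroundings of Hpn were similar. Fxyd5, which encodes a regulator of the sodium pump, lies 56.2 kb from Hpn and had KO minus WT of 0.02 in control and −0.15 in colitis. It rose with colitis, by 1.35 (WT) and by 1.18 (KO). Lsr, a protein of tricellular junctions, had 0.14 and 0.44 and fell by 0.68 with colitis in WT, and Gm4673 had 0.16 and 0.40. Of the 19 neighbours, 8 were listed for colitis in WT (5 of them lower) and 16 in KO (8 lower), where 63.1% and 78.4% of the 5171 genes with a row were listed.

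Over the whole of chromosome 7, 367 genes had a row. Aplp1 and Kirrel2 were the only 2 of them listed for KO against WT in control. In colitis 5 of the 367 were listed, namely the 3 genes, Idh2 (mitochondrial isocitrate dehydrogenase, 0.48) and Serpinh1 (a collagen chaperone, −0.72), which lie 49.0 and 68.2 Mb away. Both of these were named after their values were seen. The counts of 2 and 5 among 367 genes are near the shares of 0.890% and 1.08% listed over all genes.

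Relatives and partners of the 3 proteins were compared by lists of genes. Of 22 genes of the APP family and its processing, 6 besides Aplp1 had a row, and 0 of 6 were listed for KO against WT in either condition, with a median difference of 0.03 in control and −0.02 in colitis. With 0.890% and 1.08% of all genes listed, a count of 0 among so few genes does not set this list of relatives apart, nor those of Kirrel2 and Hpn. Aplp2, a paralog of Aplp1, had means in log2 RPM of 9.39 in WT control, 9.37 in KO control, 8.96 in WT colitis and 8.99 in KO colitis. KO minus WT was thus −0.03 and 0.04, and Aplp2 was listed as lower with colitis in WT. Apba2 and Apbb1, cytoplasmic adaptors of APP, had KO minus WT of −0.18 and −0.19 in control and −0.38 and −0.30 in colitis, Aph1b, a gamma-secretase subunit, 0.18 and 0.13, and Adam10, an alpha-secretase, 0.12 and −0.07.

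Of 15 genes of the nephrin and Neph family with its partners, 2 besides Kirrel2 had a row, both of them paralogs of Kirrel2 that encode Neph proteins. Kirrel had means of 5.07 in WT control, 5.10 in KO control, 5.55 in WT colitis and 5.04 in KO colitis (log2 RPM), and was listed as higher with colitis in WT. Kirrel3 was at 1.18, 1.50, 0.60 and 0.50 in the same order and was listed as lower with colitis in KO. Neither was listed for KO against WT. Kirrel2 thus differed from both by a listed genotype difference, and this contrast between paralogs was not tested.

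Of 26 membrane serine proteases, their inhibitors and genes of the HGF family, 5 besides Hpn had a row, with 0 listed for KO against WT and a median difference of −0.13 in each condition. Among the proteases, KO minus WT was −0.35 in control and −0.34 in colitis for Tmprss5, 0.10 and 0.33 for Tmprss7, and 0.06 and 0.01 for Tmprss4. Tmprss7 fell by 1.31 with colitis in WT, where Hpn fell too, and its difference of −1.09 in KO was not listed. Hgf, the growth factor whose precursor hepsin can cleave, rose with colitis, by 1.28 (WT) and by 1.14 (KO), and had KO minus WT of −0.22 and −0.36. Met, its receptor, had −0.13 and −0.13.

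**Figure D4:**
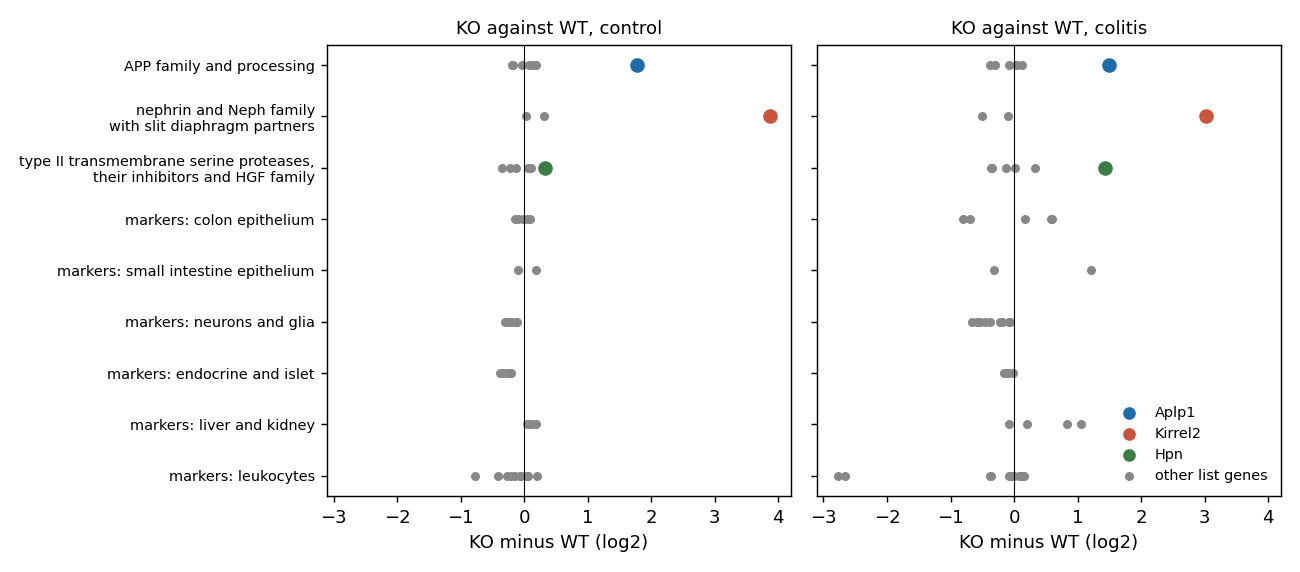
KO minus WT (log2, means raised to 3 reads) in control (left) and colitis (right) for every gene with a row in 3 lists of relatives and partners and 6 lists of cell type markers, 1 point per gene. Aplp1, Kirrel2 and Hpn lie to the right of the other genes of their lists in both conditions. Hpn does so by little in control, at 0.32 beside 0.10 for Tmprss7. S100a8 and S100a9 are the leukocyte genes near −2.66 and −2.77 in colitis.

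Markers of the cell types in which the 3 genes are known were set beside them. The paper reports Aplp1 as higher in KO in sorted small intestinal transit amplifying cells and adult enterocytes, in cultured organoids and in colon epithelium. It reports Kirrel2 as higher in KO in organoids and in colon epithelium. Those datasets were not used here. Of 14 markers of neurons and glia, 10 had a row. Each of the 10 was lower in KO than in WT in both conditions, from −0.30 to −0.11 in control, with a median of −0.22, and with a median of −0.30 in colitis, where Ret was listed (−0.66). Their log2 summed RPM was 8.30 (WT) and 8.09 (KO) in control and 7.52 and 7.21 in colitis, so the summed level was lower in KO in both conditions, in which Aplp1 was higher. Of 16 endocrine and islet markers 5 had a row, with medians of −0.27 and −0.10 beside the higher Kirrel2 of KO, and Ins1, Ins2 and Iapp had no row.

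Of 11 markers of liver and kidney, 4 had a row, with a median KO minus WT of 0.10 in control and 0.52 in colitis. All 4 were listed as lower with colitis in WT, as Hpn was, and 2 in KO, beside 26.4% and 33.6% of the 5171 genes. Most genes have a row because they passed a colitis comparison, so counts of listed markers say little about the cell types. The liver plasma proteins Alb and Ttr had colitis minus control of −1.41 and −1.50 in WT and of −0.55 and −0.73 in KO, while Hnf4a, a transcription factor that colon epithelium shares with liver, had −0.51 in WT and −0.35 in KO. The 5 colon epithelium markers had median changes with colitis of −1.31 (WT) and −0.89 (KO). Of these, 4 were listed as lower in each genotype, beside the same shares of 26.4% and 33.6%. Their median KO minus WT was −0.01 in control and 0.18 in colitis, where the markers split, with Car1 at −0.81 and Guca2a at −0.70 against 0.59 for both Aqp8 and Slc26a3. Colitis minus control of Car1 was −0.83 in WT, not listed, and −1.49 in KO, and that of Guca2a −1.32 and −2.06, so for these markers the value was further below zero in KO, unlike the median. Of the small intestine markers, Fabp2 had KO minus WT of −0.09 in control and −0.32 in colitis and was listed as lower with colitis in WT, and Fabp6 had 0.19 and 1.21. Neither was listed for KO against WT. Of 14 leukocyte markers 12 had a row, and all 12 were listed as higher with colitis in both genotypes (36.6% and 44.8% of the 5171 genes). Their median changes were 1.37 in WT and 1.41 in KO, but the markers split. S100a8 and S100a9 rose by 7.29 and 7.66 in WT and by 4.58 and 5.30 in KO, while Cd3e rose by 1.55 and 2.49. The control means of S100a8 in both genotypes, and of S100a9 in KO, lie under 3 reads and were raised to that level. Rises from these means are therefore smaller than from the means as given, and their gap between the genotypes depends on the floor. What part the lower epithelial and higher leukocyte markers have in the values of Hpn was not tested.

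Finally, genes with the most similar pattern were sought, by the Euclidean distance between the 4 group means after centring each gene on its own mean, over 5146 genes. The means were used as given, without the 3-read floor. Distances from Kirrel2 therefore rest on its WT means under 3 reads, and their order under the floor was not examined. Nearest to Aplp1 was Mt1, a metallothionein that binds zinc and copper, at a distance of 0.246 on the log2 scale. Nxf7 (0.493), Mctp1 (0.639), Gsta3, a glutathione transferase (0.697), and 2610524H06Rik (0.701) followed. All 5 were higher in KO in both conditions, and none is on chromosome 7. Kirrel2 was at a distance of 2.96 from Aplp1, since its differences were larger. In shape the means as given of both genes were nearly the same, with the same order of groups and a Pearson correlation of 0.9995. That correlation covers 4 means per gene and, for Kirrel2, WT means under 3 reads.

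For Kirrel2 the nearest were AC151971.2 (0.676), Bglap3 (1.23), Treh, the enzyme that splits trehalose (1.88), Dlk1, an imprinted gene of the Notch ligand family (2.71), and Nat8f2 (2.73). Distances were larger here because few genes had genotype differences of that size. Nearest to Hpn were Slc16a12 (0.279), Eno3, the muscle enolase (0.322), Stk26 (0.355), Slc6a4, the serotonin transporter (0.401), and Alb (0.415). These 5 genes shared with Hpn a low mean in WT colitis, with KO minus WT from 0.06 to 0.18 in control and from 1.02 to 1.22 in colitis. With 4 group means per gene, such closeness describes the means and no more.

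**Figure D5:**
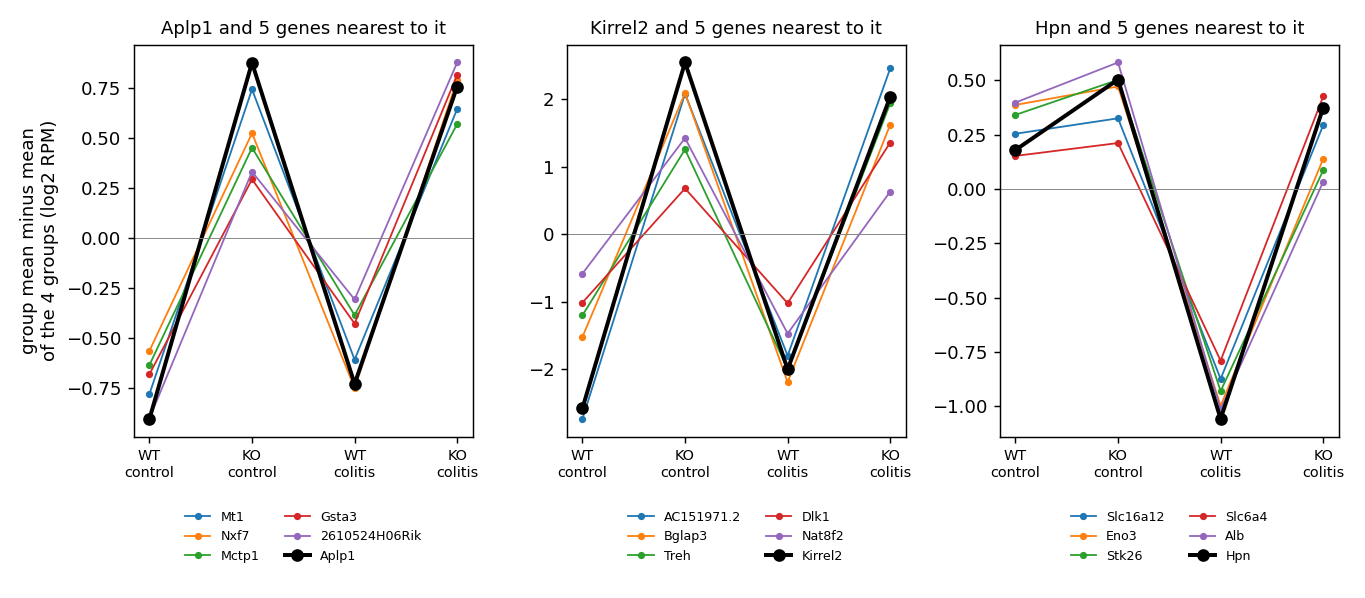
Group means minus the mean of the 4 groups (log2 RPM) for Aplp1, Kirrel2 and Hpn (black) and the 5 genes nearest to each by Euclidean distance. Genes around Aplp1 and Kirrel2 are high in both KO groups, and genes around Hpn are low in WT colitis alone, and the y axes differ between panels.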

How the data were processed

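RNA from whole colon of 16 mice was sequenced on the BGISEQ-500 platform, per the labels as single-end and per the study's methods as paired-end reads. The authors mapped reads to GRCm38 with HISAT2 (version 2.1.0), removed reads over ribosomal RNA genes after finding contamination in some samples, counted reads over merged exons in SeqMonk, and tested raw counts with DESeq2 between pairs of groups. Whether the counting used strand is not given in the sources used here. The values analysed here are log2 RPM means per group, deposited by the authors for the genes with an adjusted p-value under 0.05 (46, 56, 3261 and 4056 genes in the 4 tables). A further column holds the authors' own adjusted p-values and was not used. The means of a gene were identical between tables.

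Because no library values were used, nothing was tested. The foreseen count test was not run, and p-values are not given. Differences are between group means on the log2 scale. For the neighbours, the gene lists and, where stated, the differences of Kirrel2, a mean at or under 3 reads per library was raised to that level. Ranks, shares and medians over all genes, levels per length and nearest genes by pattern used the means as given. Depth came from the steps of the 24 lowest means per group, with 0 reads set to 0.9 (tolerance 1e-05 on the log2 scale). The step fit was tested on simulated data. Intervals and floors cover counting error only. The 3 genes and all gene lists were chosen with earlier results of these data known. The genes named are the 3, Smarcad1, the 3 nearest measured genes on each side of a member, of each list the paralogs and up to 4 with the largest genotype difference, other list genes where a sentence turns on them, and the 5 nearest by pattern among genes over 3 reads in at least 2 groups. Some genes that this rule would name are not reported here. Of the 5171 genes, 5080 matched 1 gene in the GENCODE M21 annotation. Analyses used Python (version 3.11.15), pandas (version 2.3.3), NumPy (version 2.4.6), SciPy (version 1.17.1) and matplotlib (version 3.10.9).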

Additional observations from a re-analysis of the deposited data

How the results depend on the processing

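Over 25 results, 95 alternatives were computed, of which 74 stayed within 0.2 on the log2 scale or 1.5-fold of a count or share, 21 moved and 0 reversed. The 5 differences of Aplp1 and the 5 of Hpn could not move under another floor. Their lowest mean, Hpn in WT colitis, is 48.4 reads per library, and the highest floor tried is 10. These alternatives are included in the 74 that stayed, so that count is no measure of how firm the results are. Those differences of Kirrel2 that use a WT mean did move. KO minus WT in control was 3.86 with means raised to 3 reads, 5.11 as given or with 1 read, 3.13 with 5 reads and 2.13 with 10 reads, and in colitis 3.02, 4.03, 2.28 and 1.28. As given or with 1 read, colitis minus control in WT was 0.58 and the KO minus WT difference of the colitis change −1.09, against 0.34 and −0.85 with 3 reads, and each of these rests on WT means under 3 reads, the 0.34 being no more than the gap between the 3-read levels of both WT groups. Extending the region to 2 Mb gave 2 of 28 genes with an absolute difference of at least 1 in control, against 0 of 19 within 1 Mb. These were Sycn (−1.43) and Nccrp1 (−1.12), both lower in KO and not listed. In colitis the count was 0 of 28, and the shares over all genes were 1.82% in control and 4.39% in colitis. A limit of 0.58 in either direction gave 1 of 19 neighbours in colitis, Gm29439 (0.74). Counted in favour of KO only, the share of all genes past 0.58 was 3.02% in control and 4.00% in colitis, so it is no measure to set beside that neighbour count. By Pearson correlation in place of distance, 2, 1 and 1 of the 5 nearest genes were shared for Aplp1, Kirrel2 and Hpn. Per length of the longest transcript, WT control gave 4.98 log2 RPM per kb for Aplp1 and 2.94 for Hpn, against 4.69 and 1.80 by merged exons.

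No paired analysis was possible because the tables give group means and no library values, and leaving out each replicate was not run for the same reason. A library that stands apart within a group could not be seen in these means, and the depths rest on the lowest mean of each group standing for 0 reads. Only genes that passed a comparison have a row, so a neighbour or relative without one was not analysed here.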
